A study of Homo sapiens with 10 samples.

Results

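The genes of integrins, laminins and a set of other matrix glycoproteins were compared between melanoma xenografts with and without induction of Omomyc. They were taken by gene symbol alone: every symbol that starts with ITGA, ITGB1 to ITGB8, the LAMA, LAMB and LAMC genes, and 19 further matrix genes from fibronectin (FN1) to the fibulins. Of the 17492 genes measured, 52 met this rule, each through 1 probe set: 17 integrin α genes, 8 integrin β genes, 8 laminin genes and the 19 others. The tumours arose from A375 cells, a human melanoma line in long use, placed under the skin of BALB/c nude mice, which lack T cells. The mice of 5 tumours were given vehicle and those of the other 5 were given doxycycline in the drinking water, from a tumour volume of 100 mm3 on, and tumours were taken 7 days later. Doxycycline induced Omomyc, a dominant-negative fragment of MYC, in the tumour cells. No other allele or agent is named in the labels, which do not state the promoter behind Omomyc, whether the line was 1 clone, or the age of the mice. Both groups carried the same cell line, and no tumour without the Omomyc construct received doxycycline, so what Omomyc did and what the drug did cannot be told apart.

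Integrins are cell surface receptors made of an α and a β chain, and the pair decides which matrix protein is bound. Laminins are trimers of an α, a β and a γ chain that form the sheet of the basement membrane, held together with nidogens, perlecan (HSPG2) and agrin (AGRN). Fibronectin and the fibrillins build fibres between cells, while SPARC, thrombospondins, tenascin C and periostin modulate how cells attach. In melanoma, αV, α4 and β3 integrins are known for their part in invasion and spread.

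MYC and its partner MAX bind the E-box CACGTG, so the bases just upstream of the start site were searched for it on both strands, and for the cyclic AMP response element (CRE) TGACGTCA. The window was the 250 bases before the RefSeq start site (build GRCh38.p14), and 39 of the 52 genes had one in the table. An E-box was found in 2 of these 39, ITGA6 and FBN2, and in 7.72% of the 14129 measured genes with such a window. The CRE was found in FN1 alone of the 39, and in 2.33% of the 14129. The 2 windows below belong to the called genes with a match, ITGA6, which rose, and FN1, which fell. Capitals mark the E-box at bases -101 to -96 of ITGA6 (chr2:172427086-172427335, plus strand) and the CRE at bases -183 to -176 of FN1 (chr2:215436069-215436318, minus strand), counted back from -1, the base before the start site.
ITGA6: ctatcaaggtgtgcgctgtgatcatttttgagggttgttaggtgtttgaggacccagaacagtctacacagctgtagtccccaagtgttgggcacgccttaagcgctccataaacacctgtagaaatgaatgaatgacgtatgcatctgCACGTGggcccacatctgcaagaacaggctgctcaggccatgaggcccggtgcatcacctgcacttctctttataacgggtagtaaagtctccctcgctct
FN1: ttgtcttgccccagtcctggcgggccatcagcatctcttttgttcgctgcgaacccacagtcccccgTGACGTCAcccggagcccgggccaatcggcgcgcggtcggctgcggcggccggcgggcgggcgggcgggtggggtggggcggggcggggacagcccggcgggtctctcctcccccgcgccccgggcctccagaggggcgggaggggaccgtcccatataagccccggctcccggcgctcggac
These are matches of letters, not measured binding sites.

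Values are log2 expression values made with RMA, and all changes are doxycycline minus vehicle on that scale. The array medians were 5.45 to 5.56. Doxycycline arrays 4 and 5 had the lowest mean correlation with their own group, 0.973 and 0.9669, against 0.976 or more for the other 8 arrays. The MYC probe set, which does not separate Omomyc from the cells' own MYC, rose by 1.34, from 6.35 to 7.69. Of the 12 melanoma lineage markers, NGFR, a neural crest receptor, was the only one called, rising by 1.01 without overlap (adjusted p = 0.00349). That was 8.33% called, against 11.0% of all genes, and 8.33% free of overlap, against 11.8%. The mean over the 12 was 4.95 to 5.27 in vehicle and 5.15 to 5.49 in doxycycline tumours. SOX10 lay at 7.19 to 7.60 in vehicle tumours and at 7.45 to 7.85 in doxycycline arrays 1 to 4, but at 6.49 in array 5. The pigment enzyme genes TYR and TYRP1 lay below the 25th percentile of every array. Mouse RNA from host vessels, leukocytes and fibroblasts was part of each tissue sample and may bind to probes for human genes, in a share that was not measured. The mean over 14 endothelial markers was 4.42 to 4.66 in vehicle and 4.40 to 4.93 in doxycycline tumours, and that over 12 fibroblast and pericyte markers was 4.95 to 5.41 and 4.99 to 5.21. The mean over 16 macrophage and leukocyte markers was 4.23 to 4.31 in vehicle and 4.36 to 4.73 in doxycycline tumours, without overlap. This separation rests in part on LYZ, whose rise of 1.28 was the largest of the 16, and was not shared by the whole list. The difference was above 0 for 10 and below 0 for 6, and 11 lay below the median of every array. The part of such cells in the rises described here was not tested. In tissue, fewer cells of a type and less RNA per cell cannot be told apart.

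In the doxycycline-treated tumours the fibronectin gene FN1 was lower by 4.17-fold, the laminin α chain gene LAMA4 by 2.21-fold, and integrin α4 (ITGA4) by 1.99-fold. LAMA1, a dim laminin α chain gene, also fell. Fibrillin 1 (FBN1) and thrombospondin 1 (THBS1) were higher by 2.10-fold and 2.12-fold, and the integrin chains αV (ITGAV) and α6 (ITGA6) by 1.75-fold and 1.67-fold. The groups overlapped for THBS1. In an unmoderated test of unequal variances FN1 and THBS1 did not pass (adjusted p = 0.0796 and 0.125). The test in limma, adjusted over all 17492 genes, called 5 of the 52 genes higher (adjusted p under 0.05), where 5.03% of all genes were called higher, and 6 lower, where 5.95% were called lower. Together this was 21.2% of the 52 genes against 11.0% of all genes. In 9 of the 52 genes, or 17.3%, the groups did not overlap, against 11.8% of all genes: doxycycline was above in 4, against 5.38% of all genes, and below in 5, against 6.43%. The median change of the 52 was 0.04, against 0.02 for all genes, and the median size of a change without its sign was 0.27 against 0.20.

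**Figure D1:**
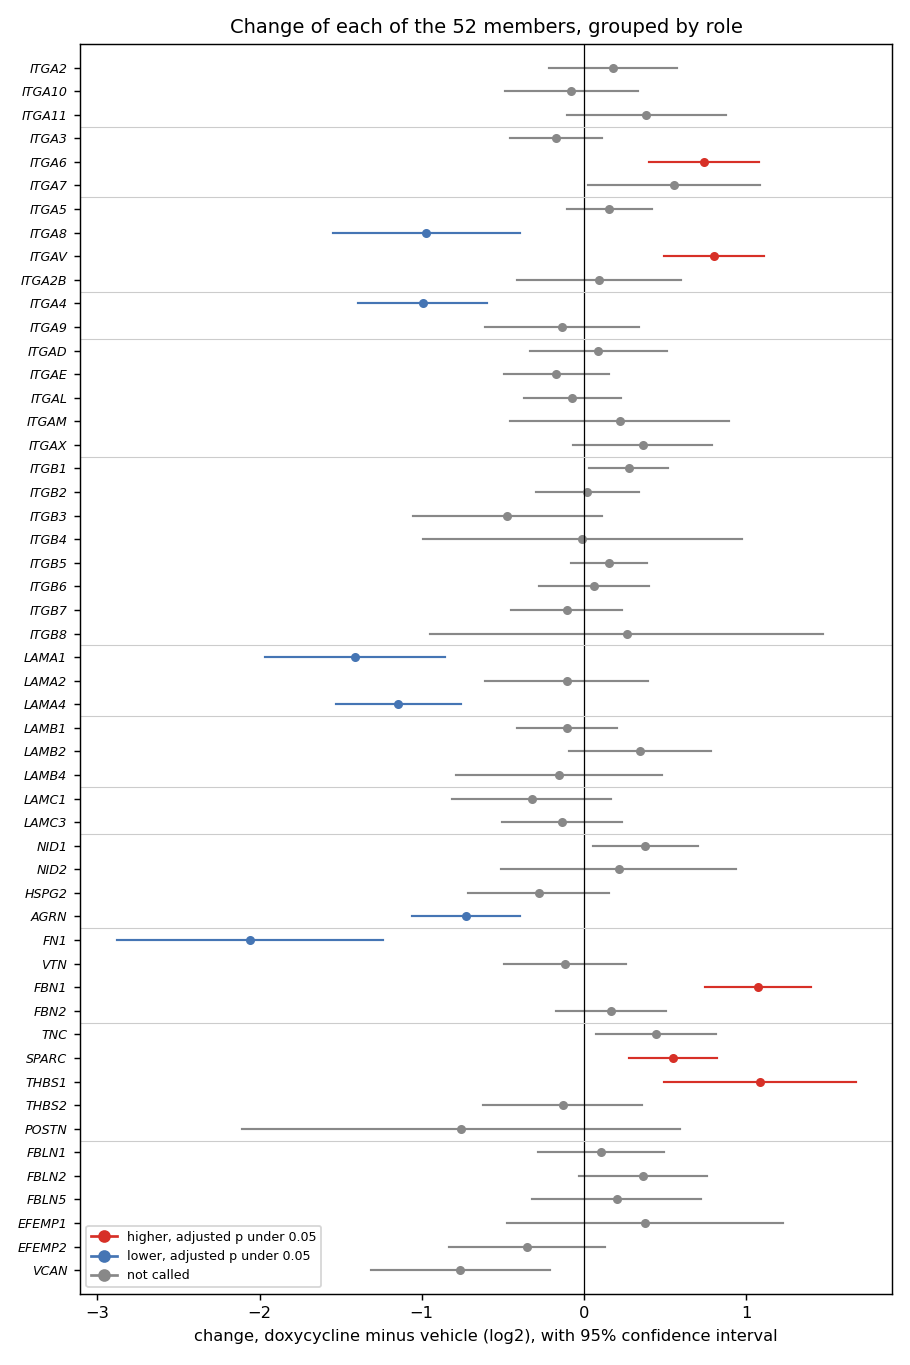
Change of each of the 52 genes, doxycycline minus vehicle on the log2 scale (x axis), with its 95% confidence interval, grouped by role from integrins (top) to fibulins and versican (bottom). Red marks the 5 genes called higher and blue the 6 called lower. The widest shift is that of FN1 at -2.06. None of the 8 integrin β genes is called, where 11.0% of all genes are.

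Among the laminin-binding integrin chains, ITGA6 rose, and ITGA3 and ITGA7 did not pass the test. The α6 chain pairs with β1 or β4 and anchors cells to laminin. ITGA6 values were 8.97, 9.0, 9.12, 9.22 and 8.71 in vehicle arrays 1 to 5 and 9.87, 9.70, 10.14, 9.65 and 9.37 in doxycycline arrays 1 to 5. Every doxycycline array lay above every vehicle array, the closest pair being vehicle array 4 and doxycycline array 5. ITGA6 rose by 0.74 (SE 0.16, 95% CI 0.40 to 1.08, 1.67-fold, adjusted p = 0.00926). ITGA3, the other main laminin receptor chain of solid tumours, differed by -0.17 (95% CI -0.46 to 0.11). ITGA7, a laminin receptor chain known from muscle, differed by 0.56 (95% CI 0.02 to 1.09, adjusted p = 0.182), with vehicle values of 4.20 to 5.35 and doxycycline values of 4.82 to 5.85.

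Of the integrin chains that bind the RGD motif of fibronectin and vitronectin, ITGAV rose and ITGA8 fell, while the classical fibronectin receptor chain ITGA5 did not pass. ITGAV values were 6.55, 6.61, 6.35, 6.84 and 6.25 in vehicle arrays 1 to 5 and 7.40, 7.18, 7.50, 7.45 and 7.10 in doxycycline arrays 1 to 5. The groups did not overlap, and doxycycline array 5, the lowest of its group, was still above vehicle array 4, the highest of the other. ITGAV rose by 0.80 (SE 0.14, 95% CI 0.49 to 1.11, 1.75-fold, adjusted p = 0.00363). ITGA5 differed by 0.16 (95% CI -0.11 to 0.42), an interval whose upper end lies below the lower end of that of ITGAV, 0.49. ITGA2B, the platelet chain, differed by 0.09 (95% CI -0.41 to 0.60).

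ITGA8, a chain known from mesenchymal cells, was dim. Its values were 4.34, 2.63, 3.83, 3.64 and 3.27 in vehicle arrays 1 to 5 and 2.51, 2.48, 2.33, 2.97 and 2.57 in doxycycline arrays 1 to 5. Vehicle array 2 lay within the doxycycline range, and the vehicle arrays spread widely. ITGA8 changed by -0.97 (SE 0.27, 95% CI -1.55 to -0.40, 1.96-fold lower, adjusted p = 0.0342), and its values lay below the array median on all 10 arrays. The call did not survive leaving out vehicle array 1, 3 or 4, nor doxycycline array 1, 2, 3 or 5, with adjusted p from 0.0537 to 0.0835, and with an unmoderated test of unequal variances for each gene, whose adjusted p of 0.143 was the highest of its 19 alternatives; the lowest was 0.00556.

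ITGA4 fell. With β1 it forms a receptor for fibronectin and for VCAM1 on endothelium. ITGA4 values were 6.03, 6.37, 5.97, 6.09 and 6.69 in vehicle arrays 1 to 5 and 5.05, 5.01, 5.32, 5.06 and 5.74 in doxycycline arrays 1 to 5. Vehicle array 3 was the lowest of its group and doxycycline array 5 the highest of the other, with no overlap. ITGA4 changed by -0.99 (SE 0.18, 95% CI -1.39 to -0.60, 1.99-fold lower, adjusted p = 0.00439). Its relative ITGA9 differed by -0.13 (95% CI -0.61 to 0.34).

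The collagen-binding chains ITGA2, ITGA10 and ITGA11 differed by 0.18, -0.08 and 0.38, and 0 of 3 passed in limma, nor did any have an unadjusted p under 0.05 or pass the unmoderated test. The widest of their intervals was that of ITGA11, -0.11 to 0.87. The leukocyte chains ITGAD, ITGAE, ITGAL, ITGAM and ITGAX, which mark T cells and myeloid cells, differed by 0.09, -0.17, -0.07, 0.22 and 0.36. Of these, 0 of 5 passed in limma, with 0 under an unadjusted p of 0.05 and 0 by the unmoderated test. In limma 11.0% of all genes passed, a share from which 0 of 3 and 0 of 5 cannot be told apart. ITGAX, the chain of dendritic cells and macrophages, lay at 5.12 to 6.0 in vehicle and 5.74 to 6.47 in doxycycline tumours, with overlap. Of the 16 macrophage and leukocyte markers, LYZ and CD14 were called higher (12.5%, against 5.03% of all genes) and 0 were called lower. The difference was above 0 for 10 of the 16 and below 0 for 6, and 11 lay below the median of every array. The pan-leukocyte gene PTPRC lay below the 25th percentile of every array.

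None of the 8 integrin β genes passed the test in limma, where 11.0% of all genes passed, or the unmoderated test. So few genes cannot tell 0 from that share. ITGB1, the common partner of most α chains, had the smallest p of the 8, with a difference of 0.27 (95% CI 0.03 to 0.52, unadjusted p = 0.0285, adjusted p = 0.144), and was the only one of them under an unadjusted p of 0.05. ITGB1 values were 10.09, 10.07, 10.10, 10.19 and 10.09 in vehicle arrays 1 to 5 and 10.45, 10.46, 10.49, 10.39 and 10.12 in doxycycline arrays 1 to 5. Of the doxycycline arrays only array 5 lay within the vehicle range. Trended and robust moderation called ITGB1 higher (adjusted p = 0.0242; range over its 20 alternatives 0.0242 to 0.24). ITGB5, the αV partner for vitronectin, differed by 0.15 (95% CI -0.08 to 0.39). ITGB3, the melanoma progression marker that pairs with αV, differed by -0.47 (95% CI -1.06 to 0.11). The leukocyte chains ITGB2 and ITGB7 and the epithelial chain ITGB6 differed by 0.02, -0.11 and 0.06.

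ITGB4 and ITGB8 split within the doxycycline group. ITGB4, the partner of α6 in hemidesmosomes, had values of 8.56, 8.12, 8.29, 8.64 and 7.98 in vehicle arrays 1 to 5 and 9.19, 9.06, 9.12, 7.66 and 6.51 in doxycycline arrays 1 to 5. Doxycycline arrays 1 to 3 lay above all vehicle arrays, and arrays 4 and 5 below all of them. The mean difference of ITGB4 was -0.01 (95% CI -1.0 to 0.98), and without doxycycline arrays 4 and 5 it was 0.81 (adjusted p = 0.0149; range over its 20 alternatives 0.0149 to 0.998). ITGB8, which with αV activates latent TGF-β, had values of 7.70, 8.12, 7.76, 7.70 and 7.37 in vehicle arrays 1 to 5 and 8.54, 9.02, 9.13, 7.79 and 5.50 in doxycycline arrays 1 to 5. Arrays 1 to 3 were again above the vehicle range, array 4 within it and array 5 below it. ITGB8 differed by 0.26 (95% CI -0.95 to 1.47) and by 0.89 without doxycycline array 5 (adjusted p = 0.0478). Without arrays 4 and 5 it differed by 1.16 (adjusted p = 0.00461, range over its 20 alternatives 0.00461 to 0.996). Arrays 4 and 5 hold the lowest doxycycline values of both genes, and their joint removal was chosen after the values were seen. The adjusted p-values without both, and that of ITGB8 without array 5 alone, are therefore not separate tests.

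**Figure D2:**
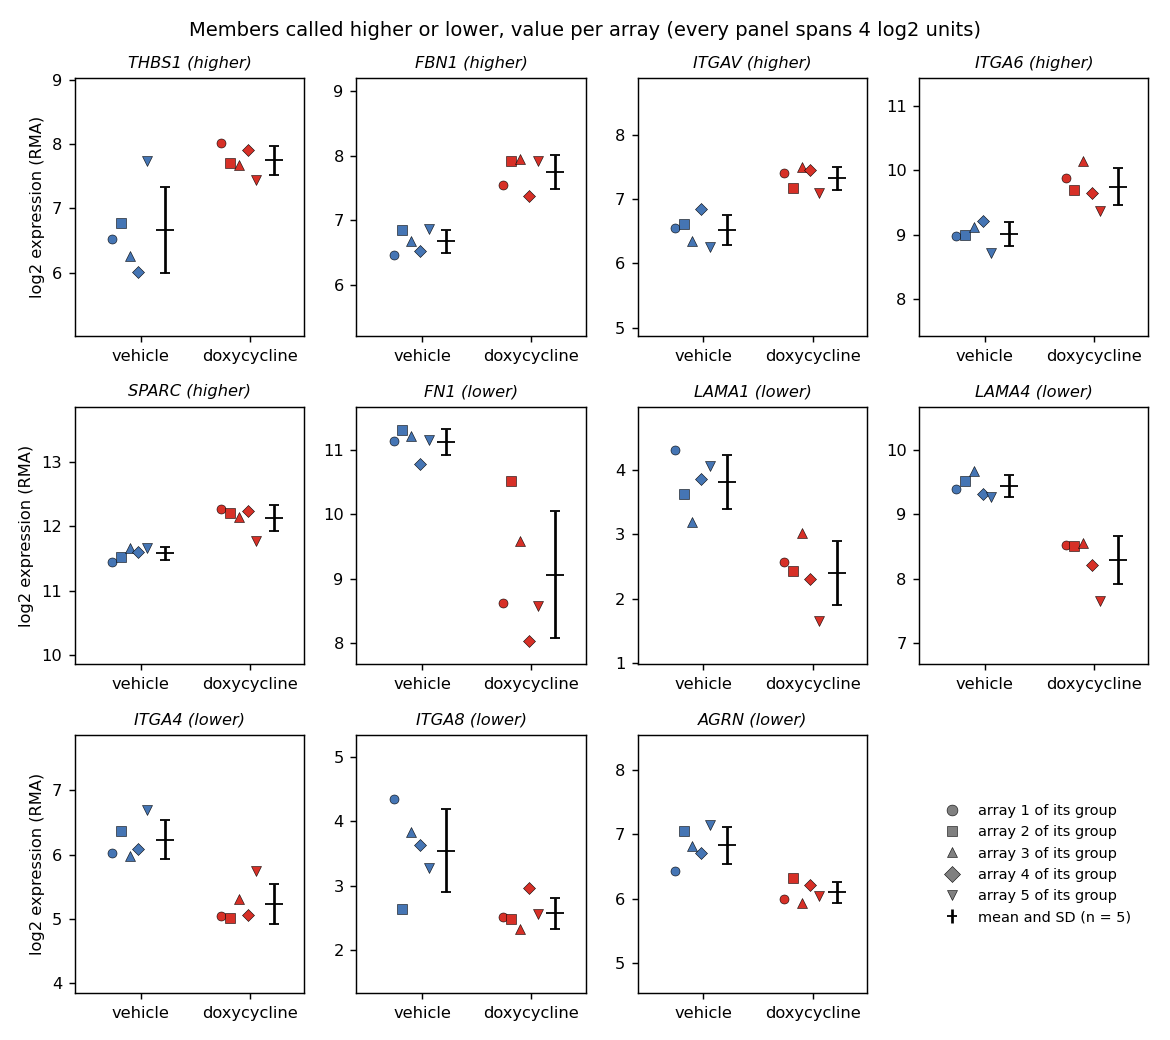
Log2 value on each array (y axis, 4 log2 units in every panel) of the 5 genes called higher and the 6 called lower, in vehicle (blue) and doxycycline (red) tumours. Symbols mark the array number within a group, which does not pair arrays, and bars give the mean and SD of 5 arrays; THBS1 and ITGA8 are the 2 genes whose groups overlap.

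Within single arrays, 7 of 10 pairs of partner chains, or of ligand and receptor, had differences that did not overlap between the groups. These pairs were chosen after their values were seen, and each of the 7 includes a gene called on its own without overlap. Their separation therefore adds no support to those calls. The difference between ITGAV and ITGB3, set to 0 at the vehicle mean, was -0.29 to 0.25 in vehicle and 0.82 to 2.04 in doxycycline arrays. Against ITGB5 it was -0.36 to 0.36 and 0.43 to 0.89, so that the α chain gained on these 2 partners in every doxycycline array. ITGA6 gained on ITGB1 in the same way, from -0.27 to 0.13 in vehicle to 0.34 to 0.75 in doxycycline arrays. This did not hold for the other partners named above: ITGA6 against ITGB4 was -0.01, -0.05, 0.33, 1.31 and 2.17 in doxycycline arrays 1 to 5 and -0.27 to 0.19 in vehicle arrays. ITGAV against ITGB8 was 0.07, -0.63, -0.42, 0.88 and 2.80 in doxycycline arrays 1 to 5 and -0.30 to 0.36 in vehicle arrays, so the α chain gained only in arrays 4 and 5. ITGA4 lost against ITGB1, with -0.25 to 0.48 in vehicle and -1.58 to -0.50 in doxycycline arrays. For ITGA5 and ITGB1, which form the main fibronectin receptor, the ranges overlapped, -0.22 to 0.22 and -0.32 to 0.07. These differences are described without a test.

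**Figure D3:**
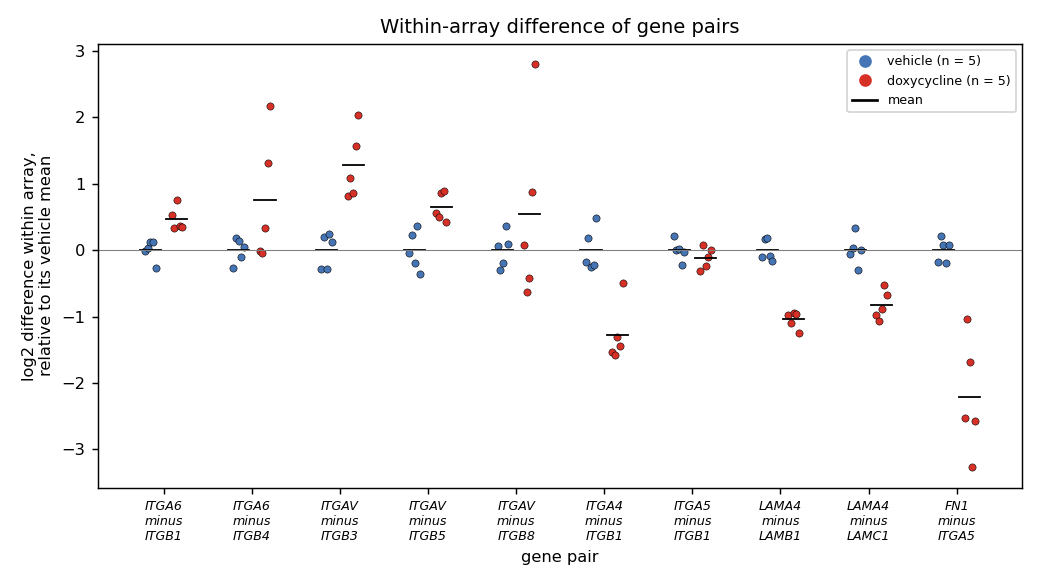
Log2 difference between 2 genes on the same array (y axis), set to 0 at the vehicle mean, for 10 pairs of integrin chains, laminin chains, or ligand and receptor (x axis). Points are single arrays and lines are means of 5; the vehicle and doxycycline points of LAMA4 against LAMB1 and LAMC1 are apart, and those of ITGA5 against ITGB1 overlap.

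Of the 8 laminin genes, 2 fell (25%, against 5.95% of all genes) and 0 rose (against 5.03%). Both that fell were among the 3 laminin α chain genes measured, and 1 of them, LAMA1, was dim. LAMA4 is the α chain of laminins in vessel walls and is made by many melanomas. LAMA4 values were 9.40, 9.52, 9.68, 9.31 and 9.26 in vehicle arrays 1 to 5 and 8.51, 8.50, 8.55, 8.22 and 7.66 in doxycycline arrays 1 to 5. The groups were far apart, with doxycycline array 5 the lowest and arrays 1 to 3 close together. LAMA4 changed by -1.15 (SE 0.18, 95% CI -1.53 to -0.76, 2.21-fold lower, adjusted p = 0.00167). It lost against its trimer partners LAMB1 and LAMC1 in every array: relative to vehicle, the difference from LAMB1 was -1.25 to -0.94 and that from LAMC1 was -1.06 to -0.53. The endothelial marker means overlapped between the groups. ROBO4 was the only one of 14 called, and it was higher (7.14%, against 5.03% of all genes). An unadjusted p under 0.05 in limma was found for 3 of the 14: ROBO4, and EGFL7 and ENG, which differed by -0.43 and -0.31. PECAM1 and KDR lay below the 25th percentile of every array. The part of endothelial cells in the fall of LAMA4 was not tested.

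LAMA1, the α chain of the embryonic laminin, was dim, below the median of all 10 arrays. LAMA1 values were 4.30, 3.63, 3.20, 3.87 and 4.06 in vehicle arrays 1 to 5 and 2.58, 2.44, 3.03, 2.31 and 1.66 in doxycycline arrays 1 to 5. The lowest vehicle value, on array 3, was above the highest doxycycline value, also on an array 3. LAMA1 changed by -1.41 (SE 0.26, 95% CI -1.96 to -0.86, 2.66-fold lower, adjusted p = 0.00409). Its doxycycline values lay below the 25th percentile of each of those arrays, and no detection call was used, so the fold is not exact. LAMA2, the muscle laminin chain, differed by -0.11 (95% CI -0.61 to 0.40).

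The β1 and γ1 chains, shared by most laminins, did not pass. LAMB1 differed by -0.10 (95% CI -0.41 to 0.20) and LAMC1 by -0.32 (95% CI -0.81 to 0.17). LAMC1 values were 10.60, 10.64, 10.49, 10.77 and 10.42 in vehicle arrays 1 to 5 and 10.64, 10.71, 10.59, 9.90 and 9.47 in doxycycline arrays 1 to 5. Arrays 1 to 3 of the doxycycline group lay in the vehicle range, and arrays 4 and 5 below it. LAMB2 differed by 0.34 (95% CI -0.09 to 0.78), and by 0.53 without doxycycline array 5 (adjusted p = 0.0414) and 0.65 without arrays 4 and 5 (adjusted p = 0.0124; range over its 20 alternatives 0.0124 to 0.516). Arrays 4 and 5 held the lowest doxycycline values of LAMB2, so the results without them are not separate tests. LAMB4 and LAMC3 differed by -0.15 and -0.13.

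Among the linkers and proteoglycans of the basement membrane, AGRN fell. Agrin is a heparan sulfate proteoglycan that binds laminin and clusters receptors at the neuromuscular junction. AGRN values were 6.43, 7.06, 6.81, 6.70 and 7.15 in vehicle arrays 1 to 5 and 5.99, 6.33, 5.93, 6.21 and 6.04 in doxycycline arrays 1 to 5. Vehicle array 1 and doxycycline array 2 were the closest pair, and the groups did not overlap. AGRN changed by -0.73 (SE 0.15, 95% CI -1.06 to -0.40, 1.66-fold lower, adjusted p = 0.00913). HSPG2 differed by -0.28 (95% CI -0.71 to 0.15).

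NID1, which bridges laminin and collagen IV, did not pass over all 10 arrays. NID1 values were 8.89, 8.94, 8.89, 9.02 and 9.13 in vehicle arrays 1 to 5 and 9.66, 9.51, 9.45, 9.25 and 8.88 in doxycycline arrays 1 to 5. Doxycycline arrays 1 to 4 lay above the vehicle range and array 5 at its lower edge. NID1 differed by 0.38 (95% CI 0.06 to 0.70, adjusted p = 0.134), and by 0.50 without array 5 (adjusted p = 0.0254; range over its 20 alternatives 0.0156 to 0.256). Array 5 held the lowest doxycycline value of NID1, so the result without it is not a separate test. NID2 was dim and differed by 0.21 (95% CI -0.51 to 0.94).

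FN1 had the largest change of the 52 genes. Fibronectin is the main ligand of α5β1 and of α4β1 and a scaffold for other matrix fibres. FN1 values were 11.14, 11.31, 11.22, 10.79 and 11.16 in vehicle arrays 1 to 5 and 8.62, 10.51, 9.58, 8.02 and 8.57 in doxycycline arrays 1 to 5. All doxycycline arrays lay below all vehicle arrays, but they differed among themselves, with array 2 near the vehicle level and array 4 the lowest. FN1 went from 11.12 ± 0.20 to 9.06 ± 0.99 (SD, n = 5 each): it changed by -2.06 (SE 0.38, 95% CI -2.88 to -1.24, 4.17-fold lower, adjusted p = 0.00434). Without doxycycline arrays 4 and 5 the change was -1.55 (adjusted p = 0.0182). With an unmoderated test for each gene, which takes the variances as unequal, FN1 did not pass (adjusted p = 0.0796; range over its 20 alternatives 0.000362 to 0.0796). Fibroblasts make much fibronectin. Of the 12 fibroblast and pericyte markers, 0 passed the test in limma, where 11.0% of all genes passed, and 0 the unmoderated one. An unadjusted p under 0.05 was found for 5, of which 3 were lower and 2 higher in doxycycline tumours. PDGFRB, LUM and COL1A1 differed by -0.57, -0.96 and -0.58, and ACTA2 and COL1A2 by 0.52 and 0.40. PDGFRB and ACTA2 were close to the threshold in limma (adjusted p = 0.0506 and 0.0526). PDGFRB was the only one of the 12 whose groups did not overlap (8.33%, against 11.8% of all genes). The part of fibroblasts in the fall of FN1 was not tested.

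FBN1 rose and had the smallest adjusted p of the 52. Fibrillin 1 forms the microfibrils that hold latent TGF-β. FBN1 values were 6.45, 6.84, 6.68, 6.52 and 6.86 in vehicle arrays 1 to 5 and 7.55, 7.92, 7.95, 7.38 and 7.92 in doxycycline arrays 1 to 5. The groups were separate, vehicle array 5 and doxycycline array 4 being closest. FBN1 rose by 1.07 (SE 0.15, 95% CI 0.75 to 1.40, 2.10-fold, adjusted p = 0.000868). Its paralogue FBN2 differed by 0.16 (95% CI -0.18 to 0.51), and VTN, vitronectin, a plasma protein made in liver, by -0.12 (95% CI -0.49 to 0.26).

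Of the matricellular genes, SPARC and THBS1 rose. SPARC is a collagen-binding glycoprotein abundant in melanoma. SPARC values were 11.44, 11.53, 11.67, 11.60 and 11.67 in vehicle arrays 1 to 5 and 12.27, 12.21, 12.14, 12.24 and 11.78 in doxycycline arrays 1 to 5. Doxycycline array 5 stood below arrays 1 to 4 of its group and just above the vehicle range. SPARC rose by 0.55 (SE 0.12, 95% CI 0.28 to 0.82, 1.46-fold, adjusted p = 0.0145), which is below 1.5-fold.

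THBS1, an inhibitor of vessel growth that can activate TGF-β, had values of 6.52, 6.78, 6.26, 6.02 and 7.74 in vehicle arrays 1 to 5 and 8.02, 7.70, 7.67, 7.91 and 7.44 in doxycycline arrays 1 to 5. Vehicle array 5 lay above doxycycline arrays 2, 3 and 5, so the groups overlapped in that array alone. THBS1 rose by 1.08 (SE 0.27, 95% CI 0.49 to 1.67, 2.12-fold, adjusted p = 0.0231). The call did not survive leaving out vehicle array 1, 3 or 4 (adjusted p = 0.0572, 0.0618 and 0.0554), nor without doxycycline array 1 or 4 (0.0545 and 0.0536) or both arrays 4 and 5 (0.0581). The unmoderated test did not call THBS1 either (adjusted p = 0.125; range over its 20 alternatives 0.00114 to 0.125).

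TNC, tenascin C, an anti-adhesive protein of tumour stroma, missed the threshold. TNC values were 9.13, 9.31, 9.22, 9.17 and 9.03 in vehicle arrays 1 to 5 and 9.97, 9.75, 9.91, 9.36 and 9.09 in doxycycline arrays 1 to 5. Doxycycline arrays 1 to 4 lay above the vehicle range and array 5 within it. TNC differed by 0.45 (95% CI 0.07 to 0.82, adjusted p = 0.125), and by 0.58 without array 5 (adjusted p = 0.0256; range over its 20 alternatives 0.00571 to 0.24). Array 5 held the lowest doxycycline value of TNC, so the result without it is not a separate test. THBS2 differed by -0.13 (95% CI -0.62 to 0.36). POSTN, periostin, mostly a product of fibroblasts, spread from 3.02 to 6.85 in vehicle and from 2.65 to 5.08 in doxycycline tumours, and its difference of -0.76 had the widest interval of the 52 (-2.11 to 0.59).

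Of the fibulin genes and VCAN, 0 of 6 passed the test in limma, where 11.0% of all genes passed. VCAN alone had an unadjusted p under 0.05, and 0 passed the unmoderated test. VCAN, versican, a large chondroitin sulfate proteoglycan, had values of 6.86, 7.02, 6.79, 6.89 and 7.25 in vehicle arrays 1 to 5 and 6.96, 6.48, 6.14, 6.17 and 5.26 in doxycycline arrays 1 to 5. Arrays 2 to 5 of the doxycycline group lay below the vehicle range and array 1 within it. VCAN differed by -0.76 (95% CI -1.31 to -0.21, adjusted p = 0.0771), and by -0.95 without doxycycline array 1 (adjusted p = 0.0225; range over its 20 alternatives 0.0225 to 0.219). Array 1 held the highest doxycycline value of VCAN, so the result without it is not a separate test. The elastic fibre genes FBLN1, FBLN2, FBLN5, EFEMP1 and EFEMP2 differed by 0.11, 0.36, 0.20, 0.38 and -0.35. Of these, EFEMP1 was at 5.12 in doxycycline array 5 and at 2.67 to 3.29 in the other 4 arrays of that group.

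**Figure D4:**
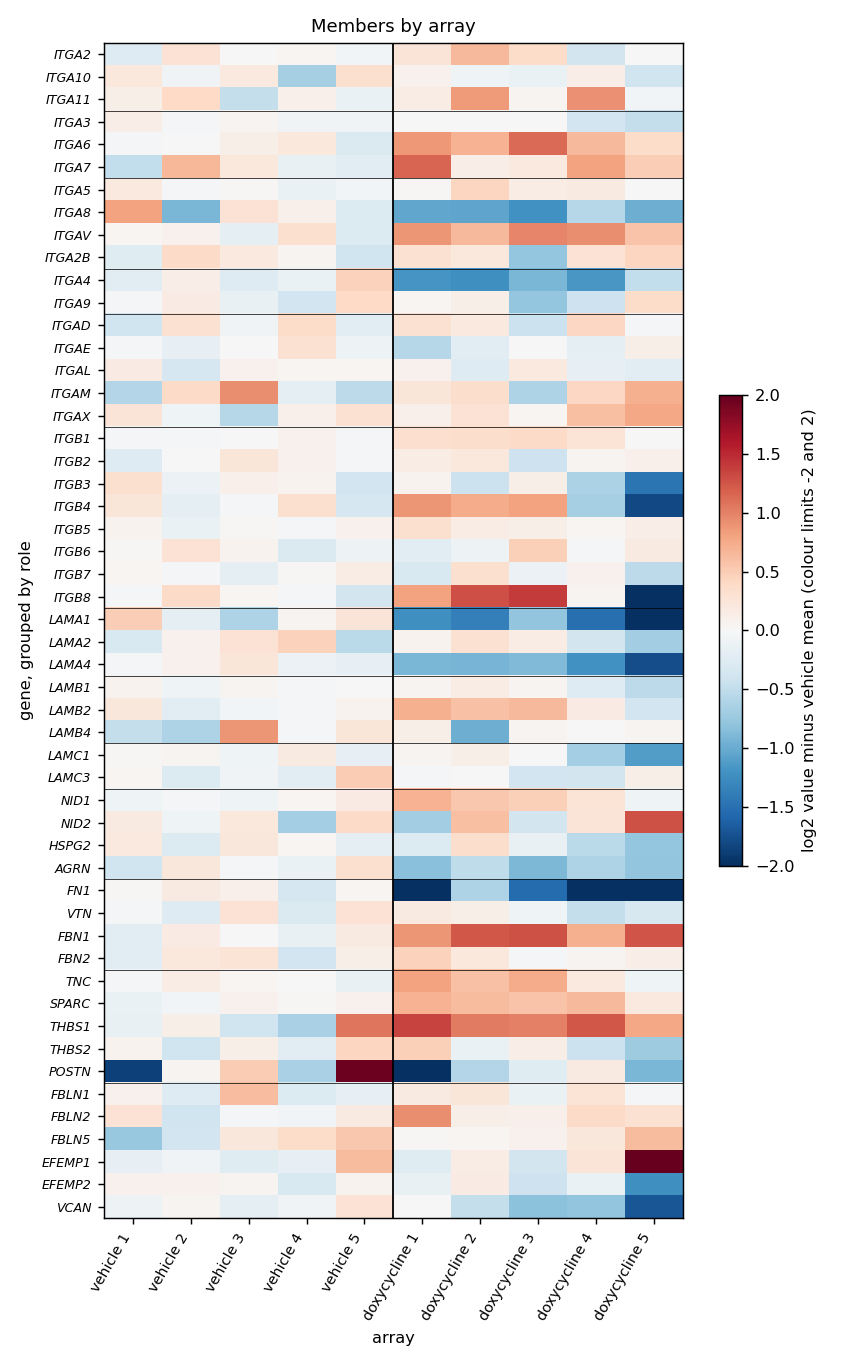
Log2 value of each of the 52 genes (rows, grouped by role) on each of the 10 arrays (columns) minus that gene's vehicle mean; red is above and blue below it, with the colour scale ending at -2 and 2. FN1, LAMA4 and ITGA4 are below the vehicle mean on all 5 doxycycline arrays, while ITGB4, ITGB8 and LAMC1 differ between arrays 1 to 3 and array 5.

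Leaving out doxycycline array 5 gave 9 genes called higher in place of 5, against 5.19% of all genes, and 5 called lower, against 5.79% of all genes. Those gained were NID1, LAMB2, ITGB8 and TNC, and ITGA8 was lost. Array 5 held the lowest doxycycline value of each gene gained, so these gains are not separate tests. Without both arrays 4 and 5, a choice made after the data were seen, 9 were higher and 5 lower, against 4.80% and 5.34% of all genes. ITGB4 was then added, and THBS1 and ITGA8 were lost. The groups then did not overlap in 17 of the 52 genes, against 20.4% of all genes. The other 9 of the 11 calls were kept without the 2 arrays, with adjusted p from 0.00187 for FBN1 to 0.0294 for AGRN. In array 5 the means over 14 endothelial markers and over 6 platelet markers, 4.93 and 3.74, were the highest of all arrays. However, 10 of the 14 endothelial and all 6 platelet markers were dim, below the median of every array. In array 5 SOX10 and S100B were at 6.49 and 5.06, against 7.45 to 7.85 and 7.21 to 7.48 in the other doxycycline arrays. NGFR and S100A1 were also lowest of the doxycycline group there, while AXL, MITF, PAX3 and TYRP1 were highest. The mean over the 12 melanoma lineage markers was 5.24 in array 5, within the doxycycline range of 5.15 to 5.49. The part of these markers in the differences was not tested.

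Adaptor proteins tie integrins to the actin cytoskeleton. Of 29 measured genes of this kind, 1 rose (3.45%, against 5.03% of all genes) and 3 fell (10.3%, against 5.95%), with a median change of 0.04. PTK2, the focal adhesion kinase, changed by -0.92 (adjusted p = 0.0075), FERMT1, the integrin activator kindlin-1, by -0.91 and PARVB, a partner of the integrin-linked kinase, by -0.93. ACTN4, an actin crosslinker, rose by 0.69 (adjusted p = 0.00173). The number that rose was 2 without vehicle array 5 or doxycycline array 2 or 4, and 3 without doxycycline array 1. TES, a zyxin-binding protein, differed by 0.46 and did not pass (adjusted p = 0.0624).

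Of 21 other surface receptors for matrix and their membrane partners, 2 rose (9.52%, against 5.03% of all genes) and 3 fell (14.3%, against 5.95%), with a median change of 0.03. Of its 5 tetraspanins, which laterally bind integrins, CD9 rose by 1.38 (adjusted p = 0.000111) and CD82 by 1.18, while CD151, the partner of laminin-binding integrins, changed by -0.75 (adjusted p = 0.00194). The other tetraspanins, CD81 and TSPAN4, differed by 0.05 and -0.13 and did not pass. GPC6, a glypican, changed by -0.89, and HMMR, a hyaluronan receptor that also acts at the mitotic spindle, by -1.25; HMMR did not pass the unmoderated test (adjusted p = 0.0839). Without vehicle array 5, 4 rose.

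Of 38 further basement membrane and matrix genes, 2 rose and 1 fell, or 7.89% against 11.0% of all genes, with a median change of -0.000566. NTN4, a netrin that binds laminin γ chains, rose by 2.09 (adjusted p = 0.00177), from 3.65 ± 0.34 to 5.74 ± 0.79 (SD, n = 5 each). MFAP4, a microfibril-associated glycoprotein, changed by -2.10 (adjusted p = 0.00435), from 7.69 ± 0.19 to 5.59 ± 1.01, and did not pass the unmoderated test (adjusted p = 0.0808). THBS3 rose by 0.50 (adjusted p = 0.0426; 0.0687 in the unmoderated test), and 1 gene in place of 2 was called higher if vehicle array 1, 2, 3 or 4 was left out, or doxycycline array 1, 2 or 3. The number that fell was 2 without doxycycline array 3. LUM and COL4A5 differed by -0.96 and 0.67 and did not pass.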

How the data were processed

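Total RNA of 10 A375 xenografts, 5 per group by their titles, was biotin-labelled and hybridised to Affymetrix arrays, per the labels' protocols and the series design. The deposited values are log2 expression values, which the authors summarised per probe set with RMA according to the submitters' processing notes. The version of RMA is not given in the sources used here, nor are the array model and genome build. Of 18569 probe sets, 17511 had 1 gene symbol, 0 had several and 1058 had none listed; all 17511 Entrez identifiers matched the RefSeq gene table (GRCh38.p14). For 17 genes with several probe sets, the one with the highest mean was used.

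All 17492 genes were fitted in R 4.3.3 with limma 3.58.1 by lmFit and eBayes, with treatment as the only term and a two-sided test, and the Benjamini-Hochberg adjusted p had to be under 0.05. The genes are called higher or lower if they passed. The procedure was tested on simulated data in which both groups had the vehicle spread of each gene. It recovered 32.8% of added log2 changes of 0.5, 79.1% of those of 1 and 97% of those of 2. The wider spread of the doxycycline group was not simulated. The labels name the tumours biological replicas; the number of arrays limits the precision, and no batch is labelled.

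The genes, lists and tests were chosen with earlier results of these data known. Every gene that met the rule is reported, with all array values for those called; of 3 further adhesion and matrix lists, up to 5 genes with the smallest p are named. Array values of ITGB1, ITGB4, ITGB8, LAMC1, NID1, TNC and VCAN, the gene pairs and both motifs were chosen after their values were seen. Some symbols of the rule's families are not analysed here. Promoter windows come from RefSeq. The alternatives run were a block for the replicate number, trended and robust moderation, an unmoderated test of unequal variances per gene, median centring, quantile normalization of the deposited values, array weights, averaged probe sets, leaving out the dimmest 30% of genes, a minimum change of 1.5-fold, each array left out, and, chosen after seeing the data, doxycycline arrays 4 and 5 left out together.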

Additional observations from a re-analysis of the deposited data

Results flagged for a closer look

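In each group of 5 arrays, a value was singled out where its gap to the next value took more than 0.71 of the group's range. Of 104 groups, 10 had such a value; chance gives about 1 in 20.

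Doxycycline array 5 was the lowest of its group for ITGB1, at 10.12 against 10.39 for the next array, and for SPARC, at 11.78 against 12.14. It was the highest for EFEMP1, at 5.12 against 3.29. Doxycycline array 3 was the lowest for the platelet integrin gene ITGA2B, at 2.88 against 3.87, and for the leukocyte β chain ITGB2, at 3.21 against 3.67. Doxycycline array 2 was the lowest for LAMB4, at 3.17 against 4.13.

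In the vehicle group, array 4 was the highest for ITGB1, at 10.19 against 10.10, and the lowest for EFEMP2, at 8.29 against 8.65. Array 2 was the lowest for ITGAL, at 2.85 against 3.22, and array 5 the highest for EFEMP1, at 3.66 against 2.96. Of these genes SPARC alone was called.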

How the results depend on the processing

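Of the 11 called genes, 7 kept their call and direction in each of the alternatives run for them, 20 in most cases and 19 for LAMA1, which was among the dimmest 30%: ITGA6, ITGAV, ITGA4, LAMA1, LAMA4, AGRN and FBN1. FN1, SPARC, ITGA8 and THBS1 lost theirs in at least 1. SPARC did not reach the minimum change of 1.5-fold. ITGB4 turned from -0.01 to 0.81 without doxycycline arrays 4 and 5; the cause was not tested. With trended and robust moderation 8 genes were higher in place of 5, while over all genes 1200 were higher in place of 880 and 1315 lower in place of 1041, and without doxycycline arrays 4 and 5 it was 9, with 17 in place of 9 free of overlap. With single arrays left out, 4 to 9 were higher, 5 to 6 lower and 9 to 12 free of overlap. The unmoderated test of unequal variances called 578 genes higher in place of 880 and 706 lower in place of 1041 over all genes. With single arrays left out, 595 to 908 of all genes were higher and 768 to 1012 lower.

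In the adaptor list, 1 gene was higher, against 2 with the replicate block, 3 with trended and robust moderation, 3 without the dimmest 30% of genes, 2 with array weights and 1 to 3 with single arrays left out. In the receptor list, 2 to 4 were higher with single arrays left out. In the further matrix list, 1 in place of 2 was higher with the replicate block, with the unmoderated test and with the minimum change, and 1 to 3 with single arrays left out. There 2 in place of 1 were lower with the replicate block and with trended and robust moderation, 0 with the unmoderated test and 1 to 2 with single arrays left out.

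Deviations of same-numbered arrays correlated by -0.0635 to 0.191, so the numbers were not taken to pair the arrays. With the replicate block THBS1 had an adjusted p of 0.0568 (range over its alternatives 0.00114 to 0.125), 4 of the 52 genes were higher and 6 lower, and over all genes 755 were higher and 886 lower. In 2 of 5 numbers, the vehicle array correlated best with its own number. Dim genes such as ITGA8 and LAMA1 have the least signal over background, and no detection call was used here.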

Other observations

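The spread within the doxycycline group was wider than in the vehicle group for 36 of the 52 genes, 69.2%, against 64.2% of all genes. It was at least 3 times as wide for 9 of them, 17.3%, against 7.6% of all genes: LAMC1, FN1, VCAN, ITGB8, LAMB1, TNC, ITGB1, EFEMP2 and ITGB4. Doxycycline array 5 was the lowest of its group for 25 of the 52 genes, 48.1%, against 22% of all genes. Array 3 was the lowest for 13 of the 52, 25% against 18.1%, and array 4 for 5, 9.62% against 21.1%. The genes share the array, and these shares carry no test.

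By brightness, 24 of the 52 genes lay above the array median on all 10 arrays, among them both α chains that rose, 5 of the 8 integrin β chains, LAMB1 and LAMC1. A further 19 lay below it on all 10 arrays, among them ITGAD, ITGAL, ITGAM, ITGB2, ITGB6, ITGB7, VTN, FBLN1, FBLN2, FBLN5 and EFEMP1. Brightness depends on the probes as well as on the transcript.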
